A study of Saccharomyces cerevisiae BY4741 with 22 samples.

Results

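The 3' ends of 18S rRNA were compared between yeast cells that made their small ribosomal subunits with the assembly factor variant Pno1-KKKF and cells that made them with Pno1, all grown at 30 °C. The 6 samples used, 3 of Pno1-KKKF and 3 of Pno1, are the 18S libraries of these strains from 30 °C cultures and the universal linker, out of 22 samples in the series. The series as a whole also holds libraries from 25 °C, libraries made with a linker that carries a unique molecular identifier (UMI), 25S libraries and a strain with plasmid-borne Rps14 and Dim1. Pno1-KKKF cells are the BY4741 strain in which the chromosomal Pno1 and Dim1 genes stand behind Gal promoters, with Pno1-KKKF supplied behind the TEF promoter and Dim1-E85A behind the Cyc1 promoter. The labels call this the condition in which Rio1 is bypassed. Pno1 cells differ only in carrying unmutated Pno1 behind the TEF promoter, and the labels call their 18S rRNA wild type. Both strains therefore carry the mutant methyltransferase Dim1-E85A, and both were grown in YPD, a glucose medium in which Gal promoters are shut off. The libraries report on rRNA of purified 40S subunits, so molecules of other particles were not sampled.

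The 3' end of 18S rRNA is made by the endonuclease Nob1, which cuts the precursor where 18S rRNA meets internal transcribed spacer 1 (ITS1). Pno1 sits on the precursor next to this cleavage site, and the kinase Rio1 helps to release Nob1 and Pno1 from nearly mature subunits. Dim1 acts close by, where it dimethylates a pair of adjacent adenosines near the end of 18S rRNA. The title of the series ties Rio1 to a survey of how faithfully this cleavage is made, and the comparison asks whether 18S rRNA ends differ when Pno1 carries the KKKF change.

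An end was counted where the read depth along the 35S precursor fell for good, so that a drop made up again further downstream was taken as a skipped nucleotide and not as an end. Distances are given from the mature end, which is nucleotide 1800 of 18S rRNA and position 2500 of the 6858 nt reference. Position 0 is that nucleotide, negative positions lie inside 18S rRNA (truncated ends) and positive positions lie in ITS1 (extended ends). Shares are percentages of all ends within 50 nt of position 0. The libraries held 2749156, 2633326 and 2636110 ends in Pno1-KKKF, and 2847541, 2648979 and 2615354 ends in Pno1. The counting error of a share was therefore small, at most 0.0219 percentage points to either side (95% Wilson interval), and the spread between libraries set the precision. PCR copies are not independent molecules, so these intervals and the floor of 3 ends cover counting error only. Position 0 was the most frequent end in 6 of 6 libraries.

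Before the results, Pno1 replicate 1 has to be singled out. Its truncated share, 3.20%, lay above the 2.10% and 1.67% of the other Pno1 libraries, and its extended share, 0.422%, lay above their 0.162% and 0.186%. Its share of ends was the highest of the 3 Pno1 libraries at each tested position from -16 to +9 other than -6, -3, -2 and 0. Without it, the log2 difference between Pno1-KKKF and Pno1 was 0.60 for all misplaced ends, 0.68 at -10 to -3, 0.35 at -2 to -1, 0.68 at +1 to +2 and 0.82 at +3 to +10. By position it was 0.33 at -1 and 0.54 at -10. The values below include this library unless stated otherwise.

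Correctly placed ends made up nearly all 18S rRNA in both strains. The share at position 0 was 97.0%, 96.6% and 97.1% in Pno1-KKKF libraries, against 96.4%, 97.7% and 98.1% in Pno1 libraries. The Pno1-KKKF values lay inside the range of the Pno1 values. Misplaced ends of either kind averaged 3.07% ± 0.284 in Pno1-KKKF and 2.58% ± 0.927 in Pno1 (SD, n = 3 each). The log2 difference of their odds was 0.32 (SE 0.30), with an exact permutation p of 0.4 and 0.6 after adjustment over the 3 shares tested. With 3 libraries against 3, the smallest p this two-sided test can give is 0.1, so no single share could pass 0.05.

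Truncated ends were the bulk of the misplaced ends in every library. They made up 2.68%, 3.16% and 2.68% of ends in Pno1-KKKF, against 3.20%, 2.10% and 1.67% in Pno1. Pno1 replicate 1 was the highest of the 6 and the other Pno1 libraries were the lowest, so the groups overlapped. The odds were 1.27-fold in Pno1-KKKF over Pno1 (log2 difference 0.35, SE 0.30), with an exact permutation p of 0.4 and an adjusted p of 0.6. Without Pno1 replicate 1 the log2 difference was 0.61, at the exact permutation p of 0.1 that is the smallest possible for 3 libraries against 2, and without Pno1 replicate 3 it was 0.13.

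**Figure D1:**
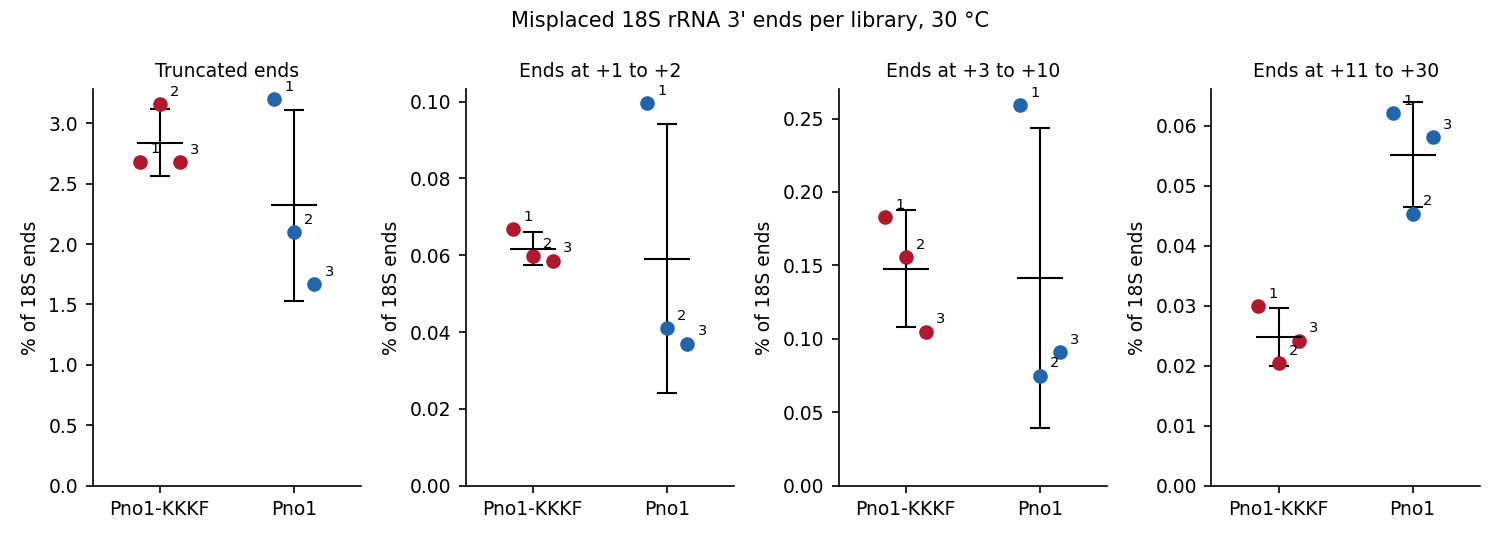
Share of 18S ends (vertical axes, % of ends within 50 nt of the mature end, each axis from 0) that were truncated, at +1 to +2, at +3 to +10 and at +11 to +30. Points are libraries with their replicate numbers, Pno1-KKKF left and Pno1 right, and bars are mean ± SD (n = 3 each). Pno1 replicate 1 lies above the other Pno1 libraries in the first 3 panels, while in the last panel all Pno1-KKKF libraries lie below all Pno1 libraries.

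The truncated ends were gathered at a few nucleotides. The most frequent in both strains was -4, that is, 18S rRNA shorter by 4 nt. Its share was 1.41%, 1.74% and 1.31% in Pno1-KKKF, against 1.62%, 0.944% and 0.807% in Pno1. Pno1 replicate 1 was within the Pno1-KKKF range and the other Pno1 libraries were below it. The fold in Pno1-KKKF over Pno1 was 1.32 (log2 0.40, SE 0.24), and edgeR's quasi-likelihood test with Benjamini-Hochberg adjustment over 41 positions gave an adjusted p of 0.334.

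Among truncated molecules alone, -4 took 52.7%, 55.0% and 48.8% in Pno1-KKKF, against 50.6%, 45.0% and 48.4% in Pno1. The difference of 4.21 percentage points (SE 2.45) had an exact permutation p of 0.2 and an adjusted p of 0.267 over the 4 measures of makeup tested. The mix of truncated ends was thus not separable between the strains with these libraries. Ends 1 or 2 nt short took 16.3%, 14.7% and 18.5% of truncated ends in Pno1-KKKF, against 15.2%, 19.5% and 19.9% in Pno1, a difference of -1.70 percentage points (SE 1.86) with an exact permutation p of 0.4 and an adjusted p of 0.4.

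The end 1 nt short of maturity, -1, held 0.380%, 0.409% and 0.427% of ends in Pno1-KKKF, against 0.435%, 0.351% and 0.295% in Pno1. The end at -9 held 0.335%, 0.407% and 0.325% in Pno1-KKKF, against 0.435%, 0.256% and 0.183% in Pno1. At both positions the Pno1-KKKF libraries lay within the Pno1 range. The log2 differences were 0.17 (SE 0.25) at -1 and 0.29 (SE 0.33) at -9, with adjusted p of 0.793 and 0.712 in edgeR's quasi-likelihood test.

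The end at -10 held 0.101%, 0.109% and 0.1004% in Pno1-KKKF, against 0.0986%, 0.0891% and 0.0528% in Pno1. This was the 1 tested position at which all Pno1-KKKF libraries were above all Pno1 libraries, 2.44% of the 41 tested, and the gap to Pno1 replicate 1 was narrow. Its log2 difference was 0.37 (SE 0.37, adjusted p = 0.702, edgeR's quasi-likelihood test). The ends at -8 and -7 averaged 0.102% ± 0.0108 and 0.121% ± 0.0128 in Pno1-KKKF, against 0.103% ± 0.0338 and 0.105% ± 0.0440 in Pno1 (SD, n = 3 each). Their log2 differences were -0.01 and 0.19, and that at -8 changed sign under other scalings. The log2 difference was 0.12 at -3 and 0.30 at -2, both positions with overlapping groups.

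No position upstream of 0 passed the test in the fit of all 6 libraries, out of 14 tested, and their median log2 difference was 0.15, against -0.13 over all 41 positions. Without Pno1 replicate 1, -4 was 1.70-fold in Pno1-KKKF over Pno1 (log2 0.76, adjusted p = 8.67e-11) and -9 was 1.62-fold (log2 0.70, adjusted p = 0.00195, edgeR's quasi-likelihood test), both past the threshold. The calls at these positions therefore turn on 1 library. As regions, the ends at -10 to -3 had odds 1.31-fold in Pno1-KKKF over Pno1 (log2 difference 0.39, SE 0.32, exact permutation p = 0.3) and those at -2 to -1 had 1.16-fold (log2 difference 0.21, SE 0.18, exact permutation p = 0.3). Both had an adjusted p of 0.525 over the 7 regions.

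Ends further inside 18S rRNA were rare. The region from -18 to -11 held 0.0277% ± 0.00410 of ends in Pno1-KKKF and 0.0453% ± 0.0317 in Pno1 (SD, n = 3 each), with a log2 difference of -0.49 (SE 0.57) and an exact permutation p of 0.7. Pno1 replicate 1 alone held 0.0382% at -13, against 0.00993% and 0.00520% in the other Pno1 libraries and 0.00837%, 0.00832% and 0.00812% in Pno1-KKKF. Without it the log2 difference of the region was 0.05. Ends upstream of about -18 cannot be seen in these files, because the depth was highest there.

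**Figure D2:**
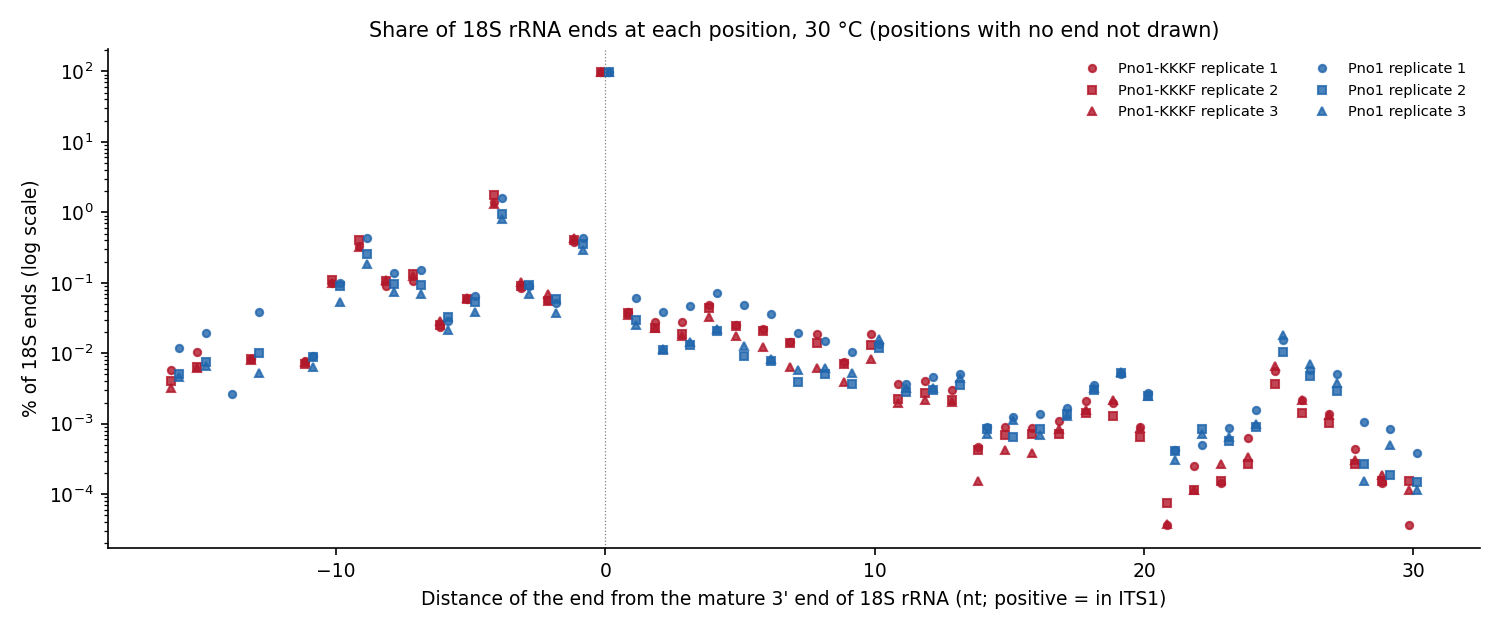
Share of 18S ends at each position (vertical axis, % of ends, log scale) by distance from the mature end (horizontal axis, nt). Each point is 1 library, with Pno1-KKKF in red and Pno1 in blue. Ends peaked at 0, -4, -1 and -9 in both strains. In ITS1 the points of both strains were mixed at +1 to +10 and apart at +18 to +27, where Pno1-KKKF lay below Pno1.

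Beyond the mature end the strains differed by distance. Extended ends in total had nearly equal mean odds in both strains, but those that reached more than 10 nt into ITS1 were rarer in each Pno1-KKKF library than in any Pno1 library. Extended ends made up 0.280%, 0.236% and 0.188% in Pno1-KKKF, against 0.422%, 0.162% and 0.186% in Pno1, with Pno1 replicate 1 again the highest. The log2 difference of the odds was -0.0029 (SE 0.47), with an exact permutation p of 1 and an adjusted p of 1. Without Pno1 replicate 1 it was 0.43 (exact permutation p = 0.2), and within 15 nt of position 0 it was 0.20, so the sign of this small value was not stable.

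Short extensions of 1 or 2 nt held 0.0668%, 0.0598% and 0.0586% of ends in Pno1-KKKF, against 0.0995%, 0.0410% and 0.0369% in Pno1. Those of 3 to 10 nt held 0.183%, 0.156% and 0.105% in Pno1-KKKF, against 0.259%, 0.0750% and 0.0907% in Pno1. In both regions Pno1 replicate 1 was above all Pno1-KKKF libraries and the other Pno1 libraries were below all of them. The log2 differences were 0.22 (SE 0.47) and 0.26 (SE 0.61), each with an exact permutation p of 0.8 and an adjusted p of 0.8.

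On average +4 was the most frequent extended end in Pno1-KKKF, while in Pno1 +1 averaged slightly more (0.0387%, against 0.0378% at +4). The end at +4 held 0.0485%, 0.0439% and 0.0329% of ends in Pno1-KKKF, against 0.0708%, 0.0205% and 0.0222% in Pno1. Its log2 difference was 0.14 (SE 0.52, adjusted p = 0.931, edgeR's quasi-likelihood test). The neighbouring +1, +2, +3 and +5 had log2 differences of -0.06, 0.26, -0.21 and -0.05, none past the threshold, and +10 had -0.04. Those at +1, +3, +5 and +10 changed sign under at least 1 other scaling or fit. Of the 10 positions from +1 to +10, 5 lay above 0 and 5 below, and none was called.

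Without Pno1 replicate 1, 6 of these near positions were called higher in Pno1-KKKF by edgeR's quasi-likelihood test, at +2 and from +4 to +8. They were the only near positions so called, with folds over Pno1 from 1.96 at +4 to 2.38 at +7. The calls near the mature end therefore turn on the same library as those at -4 and -9.

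Long extensions behaved otherwise. Ends at +11 to +30 made up 0.0299%, 0.0204% and 0.0242% in Pno1-KKKF, against 0.0621%, 0.0453% and 0.0581% in Pno1. Every Pno1-KKKF library was below every Pno1 library, and Pno1 replicate 1 was close to Pno1 replicate 3. The odds were 0.451-fold in Pno1-KKKF over Pno1 (log2 difference -1.15, SE 0.21), at the smallest exact permutation p of 0.1, which is 0.525 after adjustment over the 7 regions. Leaving out single libraries moved the log2 difference between -1.29 and -1.02. Further out, the ends at +31 to +50 were near the floor of 3 ends per library, and none lay beyond +36. They averaged 0.000249% ± 5.28e-05 in Pno1-KKKF and 0.000571% ± 0.000305 in Pno1 (SD, n = 3 each), with a log2 difference of -1.003 (SE 0.52, exact permutation p = 0.3).

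Position by position, edgeR's quasi-likelihood test with Benjamini-Hochberg adjustment called 10 of 41 positions lower in Pno1-KKKF, 24.4% of those tested, and 0 of 41 higher, 0% of those tested. At an unadjusted p under 0.05, 12 positions were lower and 0 were higher. All 10 calls fell between +14 and +27, and those at +22 and +23 met the count filter through the Pno1 libraries alone. At +14 and +24 the Pno1-KKKF libraries alone would not have met it. The counts and medians given here include these positions, where the filter favoured a lower value in Pno1-KKKF. All 16 tested positions beyond +10 lay below 0, with a median log2 difference of -1.35, against a median of 0.02 over the 10 positions from +1 to +10. The libraries of the strains did not overlap at 12 positions that were lower in Pno1-KKKF, 29.3% of the 41 tested, and these too all lay beyond +10. DESeq2 1.42.0 with size factors from total ends called 12 positions lower and 0 higher, and with its default size factors 10 lower and 4 higher, which also moved position 0 to 0.21.

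**Figure D3:**
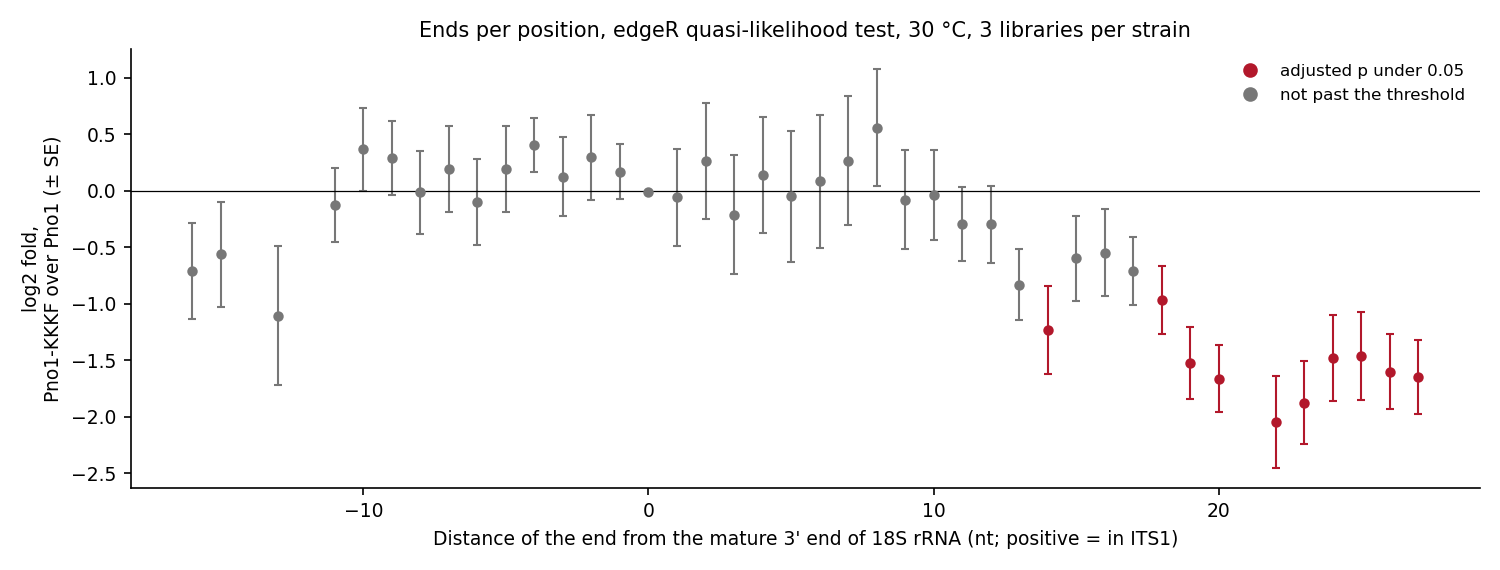
log2 fold of ends in Pno1-KKKF over Pno1 (vertical axis, with SE) by distance from the mature end (horizontal axis, nt), from edgeR's quasi-likelihood test on 3 libraries per strain. Red points passed an adjusted p of 0.05 and grey points did not. The 10 red points all lie below 0 and between +14 and +27, and the grey points from -10 to +10 lie on either side of 0.

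The most frequent of these long ends was +25. It was counted 156, 96 and 176 times in Pno1-KKKF, against 445, 278 and 469 times in Pno1. All Pno1-KKKF libraries were below all Pno1 libraries, and the fold in Pno1-KKKF over Pno1 was 0.363 (log2 -1.46, SE 0.39, adjusted p = 0.0155, edgeR's quasi-likelihood test). The neighbours +26 and +27 averaged 0.00193% ± 0.000422 and 0.00125% ± 0.000192 of ends in Pno1-KKKF, against 0.00586% ± 0.00112 and 0.00390% ± 0.00108 in Pno1 (SD, n = 3 each). Their log2 differences were -1.60 and -1.65, with adjusted p of 0.00375 and 0.00368 in edgeR's quasi-likelihood test.

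A smaller cluster of long ends lay at +18 to +20. The end at +19 made up 0.00200%, 0.00129% and 0.00220% in Pno1-KKKF, against 0.00509%, 0.00525% and 0.00547% in Pno1. Its fold in Pno1-KKKF over Pno1 was 0.348 (log2 -1.52, SE 0.32, adjusted p = 0.00375, edgeR's quasi-likelihood test). The end at +20 was counted 25, 17 and 23 times in Pno1-KKKF, against 79, 66 and 64 times in Pno1, with a log2 difference of -1.66 (SE 0.30, adjusted p = 0.00368, edgeR's quasi-likelihood test). Both positions were separated between the strains by more than the spread of either. The end at +18 had a log2 difference of -0.97 (SE 0.30, adjusted p = 0.0344, edgeR's quasi-likelihood test).

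Between these clusters and just before them the counts were low. The ends at +22, +23 and +24 averaged 0.000161%, 0.000188% and 0.000409% in Pno1-KKKF, against 0.000683%, 0.000698% and 0.00115% in Pno1. Their log2 differences were -2.05 (SE 0.41), -1.87 (SE 0.37) and -1.48 (SE 0.38), with adjusted p of 0.00368, 0.00368 and 0.0149 in edgeR's quasi-likelihood test. The end at +22 was counted 7, 3 and 3 times in Pno1-KKKF, against 14, 22 and 19 times in Pno1. That at +23 was counted 4, 4 and 7 times, against 25, 15 and 17 times. Both met the filter of at least 10 ends in at least 3 libraries through Pno1 alone. The filter thus favoured a lower value in Pno1-KKKF, and these calls are no separate support. The end at +14 had -1.23 (SE 0.39, adjusted p = 0.0359, edgeR's quasi-likelihood test). It was counted 13, 11 and 4 times in Pno1-KKKF, against 26, 22 and 19 times in Pno1. The end at +24 was counted 17, 7 and 9 times, against 44, 24 and 26 times. At both, the Pno1-KKKF libraries alone fell short of the filter, so the same limit holds there. The end at +21 held too few ends to be tested, with 1, 2 and 1 in Pno1-KKKF and 12, 11 and 8 in Pno1.

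The long ends nearest to maturity differed least. At +11 and +12 the log2 differences were -0.29 and -0.30, with the groups overlapping, and at +13 the difference was -0.83 (SE 0.32, adjusted p = 0.0859, edgeR's quasi-likelihood test) with the groups apart. Those at +15, +16 and +17 were -0.60, -0.55 and -0.71, none past the threshold.

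Single libraries changed which long ends passed. The calls numbered 6 without Pno1-KKKF replicate 2 and 4 without Pno1 replicate 3, all lower, and 17 without Pno1 replicate 1, of which 9 were lower and 8 higher. The ends at +19, +20, +26 and +27 were called lower in all 6 fits with 1 library left out. Of the 9 lower calls without Pno1 replicate 1, 8 were among the 10 made with all libraries, and the other was position 0, at a log2 difference of -0.015 (adjusted p = 0.0324, edgeR's quasi-likelihood test).

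The make-up of extended molecules followed from these values. Ends at +11 to +50 took 10.8%, 8.74% and 12.96% of extended ends in Pno1-KKKF, against 14.9%, 28.4% and 31.4% in Pno1. The groups did not overlap, but Pno1 replicate 1 was close to Pno1-KKKF replicate 3. The difference was -14.1 percentage points (SE 5.20), at the smallest exact permutation p of 0.1 and an adjusted p of 0.267. The median extended end lay at +4, +4 and +4 in Pno1-KKKF, against +4, +5 and +6 in Pno1. Molecules that reached at least +25 were 4.14% ± 1.53 of extended ends in Pno1-KKKF and 11.7% ± 4.52 in Pno1 (SD, n = 3 each). Ends at +1 to +2 took 26.8% ± 3.88 of extended ends in Pno1-KKKF and 22.9% ± 2.79 in Pno1 (SD, n = 3 each), a difference of 3.87 percentage points (SE 2.76) with an exact permutation p of 0.2 and an adjusted p of 0.267.

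**Figure D4:**
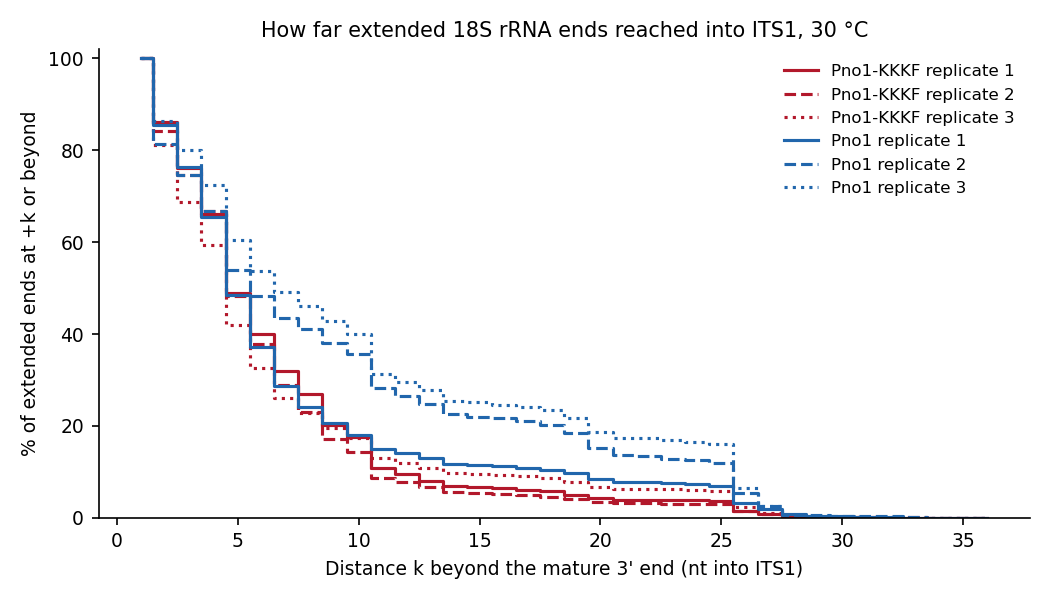
Share of extended 18S ends that lay at +k or beyond (vertical axis, %) by distance k into ITS1 (horizontal axis, nt), 1 line per library, Pno1-KKKF in red and Pno1 in blue. From +9 to +31 the lines of Pno1-KKKF lie below those of Pno1, with Pno1 replicate 1 the lowest of the Pno1 lines at +10 and +25. At +25 the means were 4.14% in Pno1-KKKF and 11.7% in Pno1.

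How far an extension could be followed was limited. In the 6 libraries reads began at -40, and the depth reached +33, +36 and +35 in Pno1-KKKF and +35 in each Pno1 library. The UMI libraries of the series began at -61 and their depth reached +211. Extensions longer than about 35 nt were thus not measured at 30 °C.

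The lower share of long ends was set against the same strain comparison at 25 °C. In the UMI libraries the ends at +11 to +30 made up 0.0341%, 0.0484% and 0.0365% in Pno1-KKKF, against 0.0289%, 0.0184% and 0.0230% in Pno1, so there Pno1-KKKF was higher in all 3 libraries. The log2 difference was -1.15 (SE 0.21) at 30 °C and 0.77 (SE 0.24) in the UMI libraries. The difference between these effects was -1.92 (SE 0.32), with an exact permutation p of 0.005, the smallest that 400 arrangements allow, and an adjusted p of 0.03 over 6 such tests. Strain labels were exchanged within each set, so this p refers to no strain effect in either set. It is not an exact test of equal effects in both. Temperature, linker and cDNA purification all changed between these sets of libraries and cannot be told apart.

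The universal-linker libraries from 25 °C share the linker and the gel purification with those from 30 °C. There the ends at +11 to +30 made up 0.0111% and 0.00985% in Pno1-KKKF, against 0.00918% and 0.00929% in Pno1, a log2 difference of 0.20 (SE 0.11). The difference from the effect at 30 °C was -1.35 (SE 0.24). Its exact permutation p of 0.0167 is the smallest that 120 arrangements allow, and its adjusted p of 0.05 does not fall below the threshold. This p too refers to no strain effect in either set. Levels of long ends were lower at 25 °C than at 30 °C in both strains with this linker. These cultures were separate replicates, so temperature and any difference in how the sets of libraries were made cannot be told apart.

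**Figure D5:**
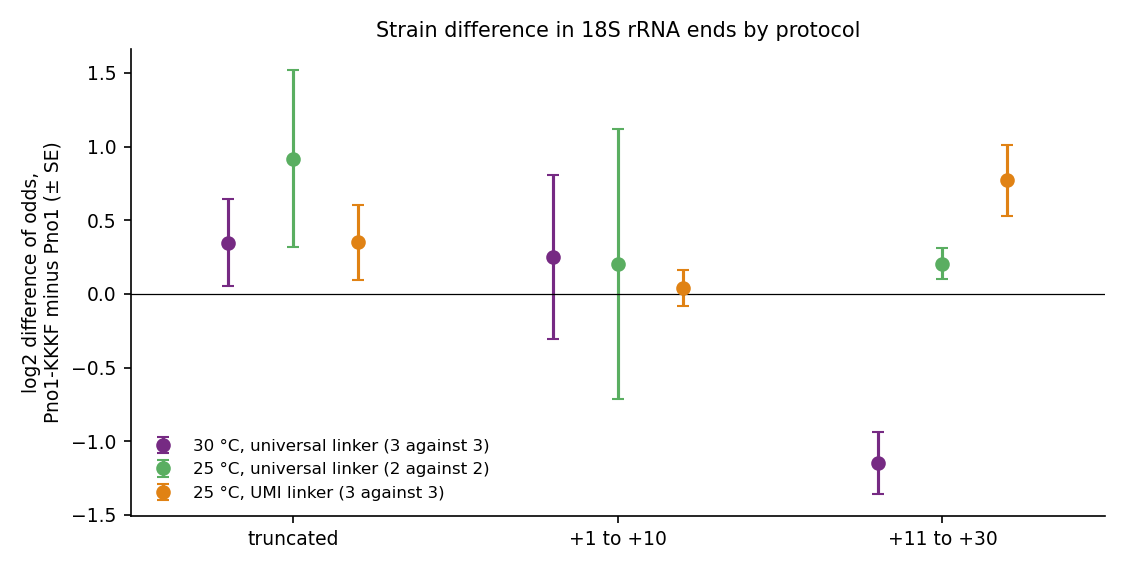
log2 difference of odds, Pno1-KKKF minus Pno1 (vertical axis, with SE), for truncated ends, ends at +1 to +10 and ends at +11 to +30 (horizontal axis) in the 18S libraries of 3 protocols, given in the legend with the number of libraries per strain. Truncated ends lie above 0 in all 3 protocols, at 0.35, 0.92 and 0.35. Ends at +11 to +30 lie at -1.15 at 30 °C, against 0.20 and 0.77 at 25 °C.

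No such difference was detected for the other ends. The truncated effect was 0.35 (SE 0.30) at 30 °C, 0.35 (SE 0.26) in the 25 °C UMI libraries and 0.92 (SE 0.60) in the 25 °C universal-linker libraries. The differences of the 30 °C effect from these were -0.0030 (SE 0.39, exact permutation p = 0.995) and -0.57 (SE 0.67, exact permutation p = 0.65). For extended ends in total they were -0.32 (SE 0.48, exact permutation p = 0.53) and -0.21 (SE 0.96, exact permutation p = 0.8). Standard errors of this size leave room for differences in either direction.

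The 25S libraries from 30 °C cultures of the same strains, 2 per strain, served as a comparison on an rRNA end that Pno1 does not border. Truncated ends on 25S averaged 2.49% in Pno1-KKKF and 2.63% in Pno1, against 2.84% and 2.32% on 18S. Extended ends on 25S averaged 0.820% in Pno1-KKKF and 0.836% in Pno1, above the 0.235% and 0.256% on 18S. Between the strains the truncated odds on 25S had a log2 difference of -0.08 (SE 0.18). The strain effect on 18S exceeded that on 25S by 0.43 (SE 0.34), with an exact permutation p of 0.25 and an adjusted p of 0.5. For extended ends the excess was 0.03 (SE 0.48, exact permutation p = 0.983). Ends at +11 to +30 were not tested against 25S.

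Skipped nucleotides, which the end count leaves out, were also compared from nucleotide 1765 to 1788 of 18S rRNA, a stretch that holds the sites of Dim1. Skips were most frequent away from these sites. At nucleotide 1765 they averaged 0.554% of reads in Pno1-KKKF and 0.569% in Pno1, with the groups overlapping. The adenosines that Dim1 dimethylates are nucleotides 1781 and 1782 of 18S rRNA, at -19 and -18, and both strains carry Dim1-E85A. At nucleotide 1781, 0.0136%, 0.0152% and 0.0148% of reads skipped in Pno1-KKKF, against 0.00586%, 0.00585% and 0.00585% in Pno1. The strains were apart by far more than the spread within either, 2.48-fold in Pno1-KKKF over Pno1, at the smallest exact permutation p of 0.1. At nucleotide 1782 the measure was 0 in all 6 libraries. Depth was highest at this nucleotide in the Pno1-KKKF libraries and in Pno1 replicates 1 and 3, where the measure is 0 by construction. It therefore cannot show whether reads skipped nucleotide 1782.

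Of 15 nucleotides that at least 10 reads skipped in every library, 2 were skipped more in all Pno1-KKKF libraries than in any Pno1 library, 13.3%, and 2 were skipped less, 13.3%. The other one skipped more was nucleotide 1778, at 0.000956% ± 0.000261 in Pno1-KKKF and 0.000518% ± 2.35e-05 in Pno1 (SD, n = 3 each). Those skipped less were 1774 and 1777, at 0.833-fold and 0.805-fold in Pno1-KKKF over Pno1. The larger skipping at 1781 was also seen in the 25 °C universal-linker libraries, with 0.00867% and 0.00979% in Pno1-KKKF against 0.00387% and 0.00523% in Pno1. In the UMI libraries it was not, with 0.134%, 0.134% and 0.162% in Pno1-KKKF against 0.279%, 0.10999% and 0.0774% in Pno1, where the groups overlapped. The UMI libraries had another profile of skips, most frequent near the sites of Dim1. Means at nucleotide 1779 were 1.002% in Pno1-KKKF and 0.995% in Pno1, against 0.0202% and 0.0198% at 1765. The measure compares depth at a nucleotide with the highest depth from there on. Reads that began just downstream of nucleotide 1781 would therefore also count as skips of it.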

How the data were processed

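The libraries were sequenced, mapped and counted by the authors. Their files give counts of reads, per the file headers: whole numbers for each nucleotide of the 6858 nt 35S reference, deposited without normalization. Per the submitters' processing notes the tools included Bowtie2 2.2.9, bedtools 2.17.0, SAMtools 1.1.0, UMI-tools 1.1.2, cutadapt 3.5, Trim Galore 0.6.1 and FastQC 0.11.4, with settings not given in the sources used here. No genome build is named, so positions refer to the 35S reference. The labels call the libraries biological replicates.

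Ends were derived as drops of the running maximum of depth, taken from 211 nt beyond the mature end. Each share was turned into log2 odds (ends of that kind over ends at 0, each count raised by 0.5) and tested by two-sided exact permutation over libraries, with Benjamini-Hochberg adjustment within each family. For differences between strain effects, strain labels were exchanged within each set of libraries. Those p-values refer to no strain effect in either set, not to equal effects. SE is that of a difference of 2 means, except at single positions. There it is the size of the log2 difference over the square root of the F statistic of edgeR's test. Ends per position (at least 10 in at least 3 libraries) were tested with edgeR 4.0.16 in R 4.3.3, with total ends as library size and an adjusted p threshold of 0.05. DESeq2 1.42.0 gave alternatives, and scipy 1.17.1, numpy 2.4.6 and Python 3.11.15 did the rest. The code was tested on simulated data. The counts simulated for the position test varied less between libraries than the real ones, so they do not give its error rate here. Any tested position from -18 to +35 may be named. Full statistics go to position 0, the 6 most frequent other ends per strain, -3 to +5, -10, +10 and all positions past the threshold, up to 12 per direction. The samples, regions and positions were chosen with earlier results of these data known. The limit of 211 nt was set after the depth profiles were seen, because stray reads elsewhere on the reference hid ends beyond +28 in Pno1 replicate 1. Of the 22 samples, 20 were used, and the Rps14 libraries were not analysed here.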

Additional observations from a re-analysis of the deposited data

Results flagged for a closer look

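The strain difference in long extensions at 30 °C was opposite in sign to those at 25 °C. The log2 difference for ends at +11 to +30 was lower at 30 °C by 1.92 against the UMI libraries (-1.92, SE 0.32, exact permutation p = 0.005, adjusted p = 0.03). Every Pno1-KKKF library was below every Pno1 library at 30 °C and above every one in the UMI libraries. Against the 25 °C universal-linker libraries the difference was -1.35 (SE 0.24, exact permutation p = 0.0167, adjusted p = 0.05). Both p-values refer to no strain effect in either set, not to equal effects. The part of temperature, of linker and of purification in this was not tested.

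Skipped nucleotides lie outside the count of ends. Among those that at least 10 reads skipped in every library, 2 were skipped more in all Pno1-KKKF libraries than in any Pno1 library. Nucleotide 1779, which fell short of this filter, was apart in the same direction, at 0.000719% in Pno1-KKKF and 0.000271% in Pno1. For the 2 that met it, the mean share of reads that skipped was 0.0145% in Pno1-KKKF and 0.00586% in Pno1 at nucleotide 1781, and 0.000956% in Pno1-KKKF and 0.000518% in Pno1 at nucleotide 1778. With 15 nucleotides compared at 3 libraries against 3, neither can pass an adjusted test.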

How the results depend on the processing

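Of the values for shares, regions, make-up, protocols and counts of calls, 84 kept their direction and side of the threshold under alternatives other than single libraries, and 3 small ones that no test had called reversed. Extended ends changed to 0.20 within 15 nt. With negative drops set to 0, the difference in truncated ends at -2 to -1 changed to 0.037 percentage points and the truncated effect against the UMI libraries to 0.032. At the positions named, 224 values kept direction and call. DESeq2's default size factors, which raised position 0 to 0.205, turned the log2 difference to 0.317 at -8, 0.305 at +1, 0.203 at +3, 0.417 at +5 and 0.096 at +10, and TMM scaling turned it to 0.060 at -8, 0.064 at +1 and 0.203 at +5. DESeq2's default size factors also brought -4, -9, -7 and -10 past the threshold as higher. The call at +25 was lost with robust empirical Bayes (adjusted p = 0.0542), that at +18 with TMM scaling and a filter of 1 end, and that at +14 with negative drops set to 0 and a filter of 1 end. With negative drops set to 0, 1 position was called higher and 9 lower. The calls numbered 7 to 14 over these alternatives. The cause of these changes was not tested.

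Same-numbered libraries did not deviate together (correlations of 0.030, -0.248 and 0.076 over 40 positions), so no pairing by number was seen. Whether same-numbered libraries were handled together cannot be told from these values. With the replicate block, 12 positions were called lower, and the log2 difference turned to 0.034 at -8, 0.054 at +1, 0.017 at +3 and 0.326 at +5. No Pno1-KKKF library correlated best with its own number.

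With single libraries left out, the count of calls ran from 4 to 17 and that of lower calls from 4 to 10. Extended ends ran from -0.27 to 0.43, the region -18 to -11 from -0.88 to 0.050, +1 to +2 from -0.049 to 0.68 and +3 to +10 from -0.085 to 0.82. Against the UMI libraries the truncated effect differed by -0.22 to 0.26 and the extended by -0.59 to 0.11. The extended effect differed by -0.48 to 0.22 against the 25 °C universal-linker libraries and by -0.24 to 0.46 against 25S. By position the ranges were -0.039 to 0.57 at -7, -0.21 to 0.27 at -8, -0.0072 to 0.21 at -3, -0.29 to 0.43 at +1, -0.037 to 1.12 at +2, -0.52 to 0.63 at +3, -0.16 to 0.97 at +4, -0.43 to 1.04 at +5 and -0.36 to 0.21 at +10. Leaving out Pno1 replicate 1 gave most of the upper ends of these ranges. Ends beyond +30 and some of those from +14 to +23 lie near the counting floor of 3 ends, where depth limits the values, and the number of libraries limits all of them.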
